A study of Mus musculus with 12 samples.

Results

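Dimethyl fumarate (DMF) was compared with its vehicle, DMSO, in VC1 cells, a mouse lung adenocarcinoma line labelled as female and of the A/J strain. The comparison covered every gene on the array and 6 of the 12 arrays of the series, namely the 3 titled as 15 µM DMF for 6 h and the 3 titled as DMSO for 6 h. The other 6 arrays held the same cells after 6 h with the synthetic triterpenoids CDDO-Im at 0.05 µM or CDDO-Me at 0.1 µM, 3 arrays each. All 12 arrays came from 1 cell line. Separate cultures are not stated for the replicates, and the spread behind each p-value may thus be technical.

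DMF, a diester of fumaric acid, is an electrophile that adds to the thiols of cysteine residues and of glutathione, and it is used as a medicine for psoriasis and multiple sclerosis. One of its targets is KEAP1, the adaptor that keeps the transcription factor NRF2 (gene Nfe2l2) at a low level by directing its degradation. When KEAP1 is modified, NRF2 accumulates, pairs with small MAF proteins and binds antioxidant response elements near genes for glutathione synthesis, quinone reduction and drug efflux. The same thiol chemistry can deplete glutathione, and cells short of amino acids or with a stressed endoplasmic reticulum make ATF4, a second regulator of cystine import.

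Values are log2 signals after background correction and quantile normalization, and differences are DMF minus DMSO on that scale, ± the standard error from limma. A gene was called at a Benjamini-Hochberg adjusted p under 0.05 over the 13280 genes tested. DMSO replicate 1 correlated with the other arrays at a median of 0.9156 across genes, and CDDO-Im replicate 2 at 0.936, while the other 10 arrays correlated at 0.988 or more with each other. These arrays were also the dimmest, with mean raw intensities of 439.6 and 457.2 against 551.6 to 683.7 on the rest. Differences between DMF and DMSO are therefore given with all 12 arrays and without DMSO replicate 1 (11 arrays), and where the spread decides a call also without both of these arrays (10 arrays). The median standard error of the difference was 0.25, 0.19 and 0.0963 in these fits. Chip was a term in each fit, since the 2 BeadChips each held all 4 groups.

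Among the VC1 cells' own markers, the keratins Krt8, Krt18 and Krt19, E-cadherin (Cdh1) and the lung transcription factor gene Nkx2-1 were detected on all 6 DMSO and DMF arrays. Of the 14 lung epithelial markers 7 were detected on all 6, and 5 (Epcam, Sftpc, Sftpa1, Sftpd and Napsa) on none. Ptprc, which marks leukocytes, and Pecam1, which marks endothelium, were detected on none. Of 9 leukocyte markers 6, and of 6 endothelial markers 3, were detected on none of these arrays. The leukocyte markers Cd14 and Cd68 and the fibroblast markers Vim and Acta2 were detected on all 6. The endothelial marker Kdr was detected on 3 DMSO and 2 DMF arrays.

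Genes called higher with DMF included 8 of cystine import and glutathione, 4 of quinone and carbonyl metabolism and 3 of the ATF4 amino acid response, 1 of them shared, in the fit of all 12 arrays. With 12 arrays 46 of 13280 genes were called (0.346%), 43 of them higher (0.324%) and 3 lower (0.0226%) with DMF. Without DMSO replicate 1 the count was 94 higher and 14 lower, 108 in all (0.813%; 0.708% and 0.105%), and these included all 46. With 10 arrays it was 552 higher and 566 lower (8.42%; 4.16% and 4.26%), again with all 46 among them. The share called higher thus went from 93.5% to 87% and 49.4%. Within chip 1 limma called 0 genes (43 at an unadjusted p under 0.05), and within chip 2 it called 147 (1.11%; 0.873% higher and 0.233% lower). Called changes of at least 2-fold were mostly rises, with 41 rises and 1 fall in 12 arrays, 57 and 3 in 11, and 79 and 9 in 10. On all 46 genes called in 12 arrays the DMF arrays did not overlap the DMSO arrays, and over all genes 11.2% lay wholly higher and 14.7% wholly lower in DMF.

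**Figure D1:**
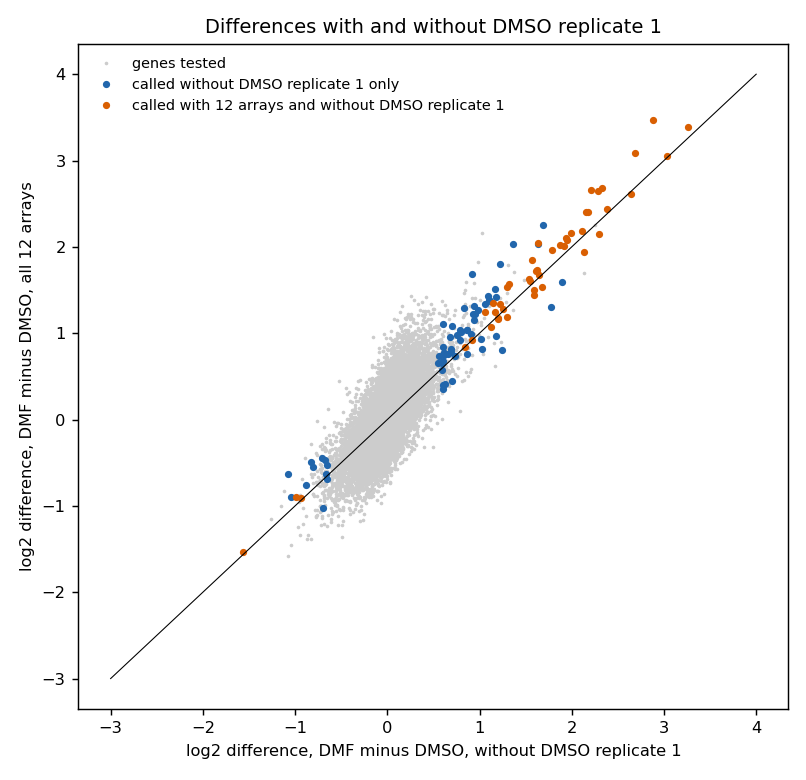
Log2 difference of each of the 13280 genes between DMF and DMSO, without DMSO replicate 1 on the x axis and with all 12 arrays on the y axis; the line marks equal values. The 46 genes called in both fits (orange) lie near the line, while uncalled genes (grey) spread further along the y axis, and 62 more genes (blue) were called only when DMSO replicate 1 was left out.

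Without DMSO replicate 1 the largest rise was that of Slc7a11, the cystine carrier of system xc-, whose import limits glutathione synthesis. Its log2 signal was 9.21, 9.75 and 9.64 on DMSO replicates 1, 2 and 3 and 12.95, 13.01 and 12.93 on the DMF arrays. The difference was 3.39 ± 0.18 with 12 arrays (adjusted p = 2.3e-05) and 3.26 without DMSO replicate 1 (adjusted p = 1.56e-05). All 4 kept Slc7a11 probes were higher in the 10 arrays, by 1.31, 1.67, 2.74 and 3.27. Slc3a2, the heavy chain that carries Slc7a11 to the membrane, lay at 5.54 on DMSO replicate 1, at 6.95 and 7.17 on the other DMSO arrays and at 8.57 to 8.96 with DMF. It was called only without DMSO replicate 1 (1.64, adjusted p = 0.0498) and not with 12 arrays (2.04 ± 0.39, adjusted p = 0.0848).

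Genes of the enzymes that use this cystine rose with it. Gclc, the catalytic subunit of the rate-limiting glutathione enzyme, was at 7.29, 6.67 and 7.15 with DMSO and at 8.70, 9.50 and 9.21 with DMF (difference 1.94 ± 0.20, adjusted p = 0.00174, and 2.13 without DMSO replicate 1). Its modifier subunit Gclm was at 10.99, 11.58 and 11.55 with DMSO and 13.35, 13.50 and 13.53 with DMF (2.02 ± 0.21, adjusted p = 0.00171, and 1.87). The groups were well apart for both genes, with DMF replicate 1 the lowest DMF array for Gclc. Chac1, which degrades glutathione, rose by 1.63 ± 0.15 (adjusted p = 0.00114, and 1.535 without DMSO replicate 1). Gss, the second enzyme of the synthesis, was called without DMSO replicate 1 at 1.25 (adjusted p = 0.0287), but DMSO and DMF overlapped when all arrays were used (0.81, adjusted p = 0.661).

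Alpha-class glutathione transferases, which join glutathione to electrophiles, made up 3 of the 15 largest rises. Gsta3 was not detected on any DMSO array, where its signals were 5.07, 4.72 and 5.20, and reached 7.72, 7.66 and 7.42 with DMF, at least 4.99-fold higher (2.61 in 12 arrays and 2.64 in 11 on the log2 scale). For that bound each DMSO array was given its dimmest detected signal where the probe was dimmer still, and mean log2 values were compared. Gsta1 lay at 10.55, 11.80 and 11.77 with DMSO and at 14.11, 14.05 and 14.05 with DMF (2.65 ± 0.29, adjusted p = 0.00249, and 2.29 without DMSO replicate 1). Gsta2, at 2.69 and 2.33 in the same fits, is a close paralog of Gsta1, and probes may bind both transcripts. Of 28 tested genes of cystine import and glutathione 8 were called higher and 0 lower with 12 arrays, 12 and 0 without DMSO replicate 1, and 18 and 0 with 10 arrays. The list's median difference was 0.498, 0.597 and 0.602 in these fits, against medians over all genes of -0.004, -0.020 and -0.021.

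Of the carbonyl and quinone enzymes those called were all higher. Cbr3, a carbonyl reductase, was at 7.75, 9.22 and 8.96 with DMSO and at 11.81, 11.77 and 11.71 with DMF, with DMSO replicate 1 the lowest. The rise was 3.09 ± 0.32 with 12 arrays (adjusted p = 0.00174) and 2.69 without that array (adjusted p = 1.56e-05). Nqo1, the quinone reductase most often used to read NRF2 activity, was dim but separate, at 5.66, 5.44 and 5.33 with DMSO and 7.0, 6.93 and 7.07 with DMF (1.498 ± 0.24, adjusted p = 0.0303, and 1.595). The aldehyde dehydrogenase gene Aldh3a1 rose by 1.85 ± 0.24 (adjusted p = 0.00891, and 1.565 without DMSO replicate 1) and the nucleotidase gene Entpd5 by 1.57 ± 0.25 (adjusted p = 0.0285, and 1.32). Of 18 tested genes of this list 4 were called higher with 12 arrays, 8 without DMSO replicate 1 and 13 with 10 arrays, with 0 lower in each, and medians of 0.896, 0.863 and 0.859.

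Among heme and iron genes 2 calls depended on DMSO replicate 1. Blvrb, a biliverdin reductase, was at 10.32, 10.89 and 10.84 with DMSO and at 12.90, 12.83 and 12.83 with DMF (2.17 ± 0.17, adjusted p = 0.00054, and 1.996 without DMSO replicate 1). Blvra, another biliverdin reductase gene of the list, differed by -0.16 with 12 arrays (adjusted p = 0.758). Hmox1, a heme oxygenase, was at 7.47 on DMSO replicate 1 and at 5.83 and 6.01 on replicates 2 and 3. Its DMF arrays lay at 7.77, 7.67 and 7.74. DMF was thus above every DMSO array, and replicate 1 was the nearest to it. The difference was 1.31 ± 0.40 with 12 arrays (adjusted p = 0.44) and 1.78 without DMSO replicate 1 (adjusted p = 0.00622). Slc48a1, a heme carrier, was also called only without that array (1.02, adjusted p = 0.0479) and not with 12 (0.82, adjusted p = 0.336). Of 15 tested genes of this list 1, 3 and 6 were called higher in the 12, 11 and 10 arrays and 0 lower, with medians of 0.150, 0.197 and 0.200.

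Srxn1, the sulfiredoxin that repairs oxidized peroxiredoxins, was at 11.77, 11.21 and 11.41 with DMSO and at 13.55, 13.67 and 13.63 with DMF (2.14 ± 0.18, adjusted p = 0.000652, and 2.29 without DMSO replicate 1). Txnrd1, the cytosolic thioredoxin reductase, was at 5.39 on DMSO replicate 1, at 7.51 and 7.59 on the other DMSO arrays, and at 8.92, 9.40 and 9.61 with DMF. It was called without DMSO replicate 1 (1.69, adjusted p = 0.00244) and not with it (2.25 ± 0.45, adjusted p = 0.0912), although the estimate was larger with it. The list of 20 thioredoxin and peroxiredoxin genes had a median of 0.308 with 12 arrays and 0.085 without DMSO replicate 1, and on that array these genes had a median difference from the other DMSO arrays of -0.506. Among them 1 was called higher in 12 arrays, 2 in 11 and 3 in 10, where Txnip, an inhibitor of thioredoxin, had a difference of -0.68. The 11 genes of NADPH supply had a median of 0.570 in 12 arrays and 0.284 in 11. In the 12-array limma fit 0 of these 11 passed (3 at an unadjusted p under 0.05), and Pgd, a dehydrogenase of the pentose phosphate pathway, passed without DMSO replicate 1 (0.73 in both fits, adjusted p = 0.0674 and 0.0279). G6pdx, which starts that pathway, differed by 0.12 ± 0.21 (adjusted p = 0.825).

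Of the regulators' own genes, 1 of 11 passed without DMSO replicate 1. Nfe2l2, encoding NRF2, was at 9.73, 9.82 and 9.73 with DMSO and at 9.74, 9.62 and 9.90 with DMF, with overlapping groups (-0.12 ± 0.80, adjusted p = 0.961). Its large error came with CDDO-Im replicate 2, where it lay at 5.78, and in the 10 arrays the difference was 0.004 ± 0.12 (adjusted p = 0.988). Keap1 was at 12 on DMSO replicate 1, at 11.08 and 11.17 on the other DMSO arrays and at 11.44, 11.50 and 11.39 with DMF (0.08, adjusted p = 0.91), and with 10 arrays it was called higher by 0.31 (adjusted p = 0.0262). Its other kept probes differed by 0.37, 0.07 and 0.07 in the 10 arrays, with unadjusted limma p-values of 0.00216, 0.477 and 0.54. Mafg, one of the small MAF partners, was called without DMSO replicate 1 at 0.69 (adjusted p = 0.0491) and had an adjusted p of 0.103 with 12 arrays. Among the 11, limma called 0 in 12 arrays (2 at an unadjusted p under 0.05), 1 in 11 and 3 in 10, all higher, the last also including Sqstm1, the autophagy receptor p62 that binds KEAP1 (0.89). The efflux carriers Abcb4 and Abcc4 rose by 2.10 ± 0.27 (adjusted p = 0.00774) and 1.17 ± 0.16 (adjusted p = 0.015), and by 1.94 and 1.198 without DMSO replicate 1, 2 of 6 carriers tested. Abcb4, a phospholipid carrier, was at 4.79, 5.38 and 5.10 with DMSO and 7.22, 7.18 and 7.04 with DMF.

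The antioxidant response element was searched for in promoter windows from RefSeq (GRCm38.p6), 250 bases before to 50 after each gene start, because most of the genes above are known targets of NRF2. The core searched was TGACNNNGC on either strand. It was found in 25.0% of the 76 genes with a window among those that passed the rule for naming genes and were higher with DMF, in 16.7% of 8481 tested genes with a window and in 14.0% of all 27025. These shares are a description of the windows and show no binding. Of the 15 largest rises only Gsta3, Srxn1 and Calr3 had a core. No core was found for Slc7a11, Gclc, Cbr3, Gsta1, Gsta2, Blvrb, Nqo1 or Hmox1, and whether each of these had a window is not given here. Below are the stretches around a core lying wholly before the start in 2 of the 15 largest rises and in 3 genes of the glutathione, thioredoxin and efflux lists, 5′ to 3′ along the gene, with the core in capitals.
Gsta3, chr1:21240424-21240512, plus strand: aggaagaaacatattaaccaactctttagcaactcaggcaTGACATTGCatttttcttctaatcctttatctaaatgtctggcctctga
Calr3, chr8:72435294-72435382, minus strand: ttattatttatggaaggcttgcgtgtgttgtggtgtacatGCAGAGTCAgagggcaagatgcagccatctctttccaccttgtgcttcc
Gclm, chr3:122245383-122245471, plus strand: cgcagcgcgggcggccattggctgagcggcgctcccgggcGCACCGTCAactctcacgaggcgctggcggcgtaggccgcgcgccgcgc
Txnrd1, chr10:82859074-82859162, plus strand: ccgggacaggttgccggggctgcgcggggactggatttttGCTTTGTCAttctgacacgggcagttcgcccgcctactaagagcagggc
Abcc4, chr14:118706220-118706284, minus strand: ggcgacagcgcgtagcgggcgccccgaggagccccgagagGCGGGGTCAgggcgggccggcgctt
In the stretches shown Gsta3 carries the core in the orientation searched, and the other 4 carry its reverse complement. Another window of Abcc4, not shown, carries a core in the orientation searched.

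A second set of rises was among the listed genes of the ATF4 amino acid response, in which cells short of amino acids induce their carriers and enzymes. ATF4 activity was not measured, and a role for it was not tested. The Atf4 transcript differed by 0.495, 0.365 and 0.36 in the 12, 11 and 10 arrays (adjusted p = 0.523, 0.358 and 0.0405). Some members of the list were called in no fit. Among these was Asns, at 0.34, 0.195 and 0.195 in the 12, 11 and 10 arrays (adjusted p = 0.661, 0.792 and 0.194). Slc1a4, a carrier of neutral amino acids, was at 8.91, 9.45 and 9.23 with DMSO and at 11.27, 11.37 and 11.18 with DMF (2.08 ± 0.17, adjusted p = 0.000613, and 1.946 without DMSO replicate 1). Trib3, a pseudokinase that feeds back on ATF4, was at 8.16, 8.45 and 8.42 with DMSO and at 10.47, 10.31 and 10.19 with DMF (2.01 ± 0.19, adjusted p = 0.00125, and 1.91). Both groups were tight and far apart. Chac1, already named for glutathione, is also an ATF4 target, and its signals were 10.13, 10.42 and 10.42 with DMSO and 12.02, 11.90 and 11.90 with DMF. Of 25 tested genes 3 were called higher with 12 arrays, 5 without DMSO replicate 1 and 9 with 10, with 0 lower in each. The medians were 0.344, 0.365 and 0.360, and on DMSO replicate 1 the genes' median difference from the other DMSO arrays was -0.282. Slc6a9, a glycine carrier outside the list, rose by 1.72 ± 0.17 (adjusted p = 0.00171, and 1.615 without DMSO replicate 1).

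Dppa5a, a gene best known from pluripotent stem cells, was next in size after Slc7a11 without DMSO replicate 1. Its signals were 5.82, 5.86 and 5.66 with DMSO and 8.84, 8.66 and 8.77 with DMF (3.05 ± 0.14, adjusted p = 1.65e-05, and 3.035 without DMSO replicate 1). Ampd3, an AMP deaminase with the largest rise in 12 arrays, was at 7.06 on DMSO replicate 1, at 9.29 and 9.04 on the others and at 12, 12.11 and 12.06 with DMF. Its rise was 3.47 ± 0.50 with 12 arrays (adjusted p = 0.0176) and 2.88 without DMSO replicate 1 (adjusted p = 0.00235). Mmp10, a matrix metalloproteinase, was detected on 1 DMSO array, with signals of 5.11, 5.08 and 5.59, and on all DMF arrays, at 7.72, 7.80 and 7.67 (2.44 ± 0.16, adjusted p = 0.00011, and 2.38 without DMSO replicate 1). Egr1, an immediate early transcription factor, was at 7.46, 9.17 and 8.73 with DMSO and at 11.46, 10.96 and 11 with DMF (2.66 ± 0.38, adjusted p = 0.0165, and 2.21 without DMSO replicate 1).

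The remaining large rises were the imprinted gene Mest (2.41 ± 0.23, and 2.17 without DMSO replicate 1), Calr3, a testis calreticulin (2.40 ± 0.25, and 2.15), and Clec4d, a C-type lectin receptor that was detected on no DMSO array and was at least 3.10-fold higher with DMF (2.18 in 12 arrays and 2.11 in 11 on the log2 scale). Mest was at 4.68, 5.58 and 5.58 with DMSO and at 7.68, 7.94 and 7.73 with DMF, and DMSO replicate 1 was again the lowest. Further genes called higher in 12 arrays, with adjusted p-values of 0.000783 to 0.0396, were Tmem117 (1.96 with 12 arrays and 1.78 without DMSO replicate 1), Acox2 (2.05 and 1.63), the myelin protein gene Mal (1.73 and 1.63), the macrophage-stimulating protein receptor gene Mst1r (1.68 and 1.64, at least 2.22-fold), Esam (1.61 and 1.55, at least 2.32-fold), Ikbkg (1.34 and 1.23), the growth factor gene Fgf1 (1.25 and 1.17) and its carrier Fgfbp1 (1.28 and 1.26, at least 1.77-fold), the keratins Krt5 (1.17 and 1.20, at least 1.49-fold) and Krt6b (1.19 and 1.295), the protein C receptor gene Procr (1.25 and 1.06), Dtx4 (0.92 in both), Havcr2 (1.08 and 1.13) and the phosphatase gene Ptpn22 (0.84 in both).

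**Figure D2:**
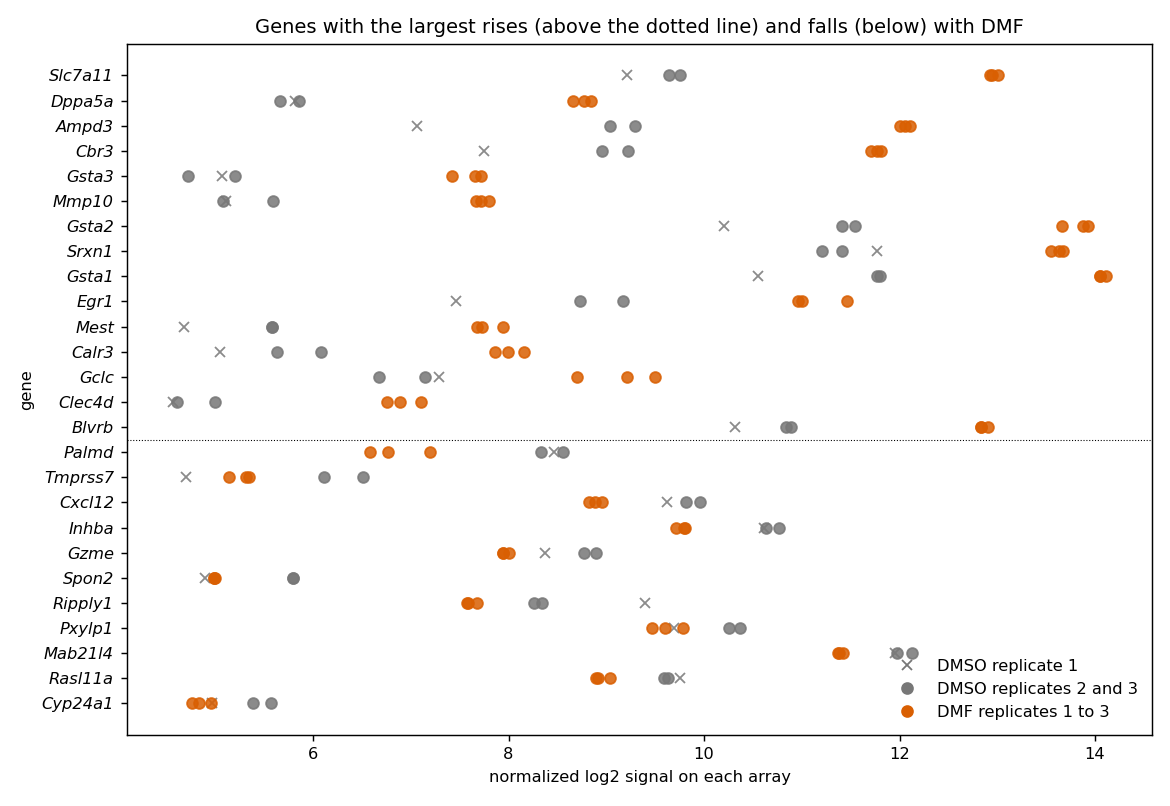
Log2 signal on each DMSO array (grey, with a cross for replicate 1) and DMF array (orange) for the 15 largest rises and the 11 falls that passed the rule for naming genes, ordered by the difference in 10 arrays. For Slc7a11 the DMF arrays lie at 12.93 to 13.01 and the DMSO arrays at 9.21 to 9.75, while for Tmprss7 and Spon2 DMSO replicate 1 lies below the DMF arrays.

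Falls were fewer than rises in the 12 and the 11 arrays, but not in the 10 arrays (566 lower and 552 higher). Palmd, which encodes palmdelphin, was at 8.46, 8.33 and 8.56 with DMSO and at 7.2, 6.77 and 6.58 with DMF (-1.53 ± 0.22, adjusted p = 0.0181, and -1.56 without DMSO replicate 1). Cxcl12, a chemokine that attracts CXCR4-bearing cells, was at 9.62, 9.96 and 9.82 with DMSO and at 8.96, 8.88 and 8.82 with DMF (-0.89 ± 0.15, adjusted p = 0.0391, and -0.99). Its 2 other kept probes were lower in the 10 arrays by less, at -0.40 and -0.27. Inhba, the activin A subunit, was at 10.61, 10.63 and 10.77 with DMSO and at 9.80, 9.71 and 9.79 with DMF (-0.91 ± 0.15, adjusted p = 0.0343, and -0.94). These were the 3 genes called lower in 12 arrays, and for each of them every DMF array was below every DMSO array.

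Without DMSO replicate 1, 8 further genes that met the rule for naming were called lower. Tmprss7, a membrane serine protease gene, had a difference of -1.08 (adjusted p = 0.0166) there and of -0.63 (adjusted p = 0.661) with 12 arrays, since DMSO replicate 1 was at 4.70 and the other DMSO arrays at 6.11 and 6.51. Gzme, whose probe may also bind other granzyme transcripts, had differences of -0.88 (adjusted p = 0.0164) and -0.76 (adjusted p = 0.137). Spon2, a secreted matrix protein gene (-0.81), and Cyp24a1, the vitamin D 24-hydroxylase (-0.65), were detected on no DMF array and on 2 of the 3 DMSO arrays. With the dimmest detected signal given to the DMF arrays, Spon2 was at least 1.11-fold lower than the mean of the 3 DMSO arrays. No bound is given for Cyp24a1. Spon2 lay at 4.89 on DMSO replicate 1, below the DMF arrays. The others were Ripply1 (-0.69), Pxylp1 (-0.67), Mab21l4 (-0.66) and Rasl11a (-0.66), and these 6 genes had adjusted p-values of 0.021 to 0.0429 there and 0.0905 to 0.661 with 12 arrays. Pxylp1 on DMSO replicate 1 (9.69) lay inside the DMF range of 9.47 to 9.78.

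Targets of TGF-beta, BMP and YAP signalling had medians below that of all genes. Of 28 tested genes 0 were called higher and 1 lower (Inhba) both in 12 arrays and without DMSO replicate 1, and 1 higher and 8 lower in 10 arrays. The median difference was -0.383, -0.214 and -0.228. In the 10 arrays Thbs1, a matrix protein of platelets and stroma, had a difference of -0.87 (adjusted p = 0.00917) and Ccn2, a YAP target, one of -0.74 (adjusted p = 0.000945), and both missed the threshold in the 12 and the 11 arrays. Matrix proteases had 1 call with 12 arrays, Mmp10, and a second without DMSO replicate 1, the collagenase gene Mmp13 (0.98, adjusted p = 0.0332), whose 2 kept probes differed in sign in the 10 arrays. In the 10 arrays 3 were called higher and 2 lower, the latter being Mmp14, a membrane-bound metalloproteinase (-0.499, adjusted p = 0.0262), and Serpinb2, an inhibitor of plasminogen activators (-0.66, adjusted p = 0.0046). The list's median was near that of all genes, at 0.032 and -0.005.

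Immediate early and MAP kinase feedback genes were led by Egr1. Of 25 tested genes 1 was called higher with 12 arrays and 2 without DMSO replicate 1, the second being Zfp36, which speeds the decay of cytokine transcripts (0.60, adjusted p = 0.0393), whose DMSO replicate 1 lay within the DMF range and which missed it with 12 arrays (0.40, adjusted p = 0.661). With 10 arrays 6 were called higher, among them Fos (1.33), Egr3 (0.86) and the phosphatase gene Dusp1 (0.84), and Jun was called lower (-0.46). Vegfa, the endothelial growth factor, was at 9.34, 10.13 and 9.98 with DMSO and at 11.24, 11.12 and 11.24 with DMF (1.35 ± 0.20, adjusted p = 0.0195, and 1.14 without DMSO replicate 1). It was the 1 call in 12 arrays among 26 genes of glycolysis and hypoxia, where Egln3, an oxygen-sensing prolyl hydroxylase (0.70, adjusted p = 0.0222), and the glucose carrier Slc2a1 (0.60, adjusted p = 0.0299) joined it without DMSO replicate 1. With 10 arrays the list had 9 calls higher and 1 lower, and its medians were 0.114, 0.143 and 0.173.

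Calls among inflammatory, interferon and JAK-STAT3 genes came mostly in the 10 arrays. Of 22 tested genes of NF-kB signalling, cytokines and chemokines, Cxcl12 was called lower, and the alarmin gene Il33 was called higher without DMSO replicate 1 (1.17, adjusted p = 0.0377) and not with 12 arrays (1.52, adjusted p = 0.106), with medians of -0.017 and 0.011. With 10 arrays 1 was called higher and 2 lower, the second being Csf1, a macrophage growth factor (-0.76, adjusted p = 0.0212), whose DMSO and DMF arrays overlapped. Oasl1 among 12 interferon response genes (0.82, adjusted p = 0.00082) passed with 10 arrays and in neither of the larger fits. Of 13 JAK-STAT3 genes 3 did so, with the STAT3 feedback inhibitor Socs3 (0.47, adjusted p = 0.0075) and the repressor Bcl6 (0.465, adjusted p = 0.0123) higher and Cish, another feedback inhibitor, lower (-0.62, adjusted p = 0.0465). Btc, an EGF receptor ligand, was called in the 10 arrays too (0.57, adjusted p = 0.00447), as 1 of 10 in its list.

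Lipid and endoplasmic reticulum genes depended on the arrays used. Acss2, which makes acetyl-CoA from acetate, was at 5.27 on DMSO replicate 1, at 7.69 and 7.36 on the others and at 9.03, 8.76 and 8.84 with DMF. It was called without DMSO replicate 1 (1.36, adjusted p = 0.0129) and not with 12 arrays (2.04, adjusted p = 0.248). The fatty acid list of 14 genes had a median of 0.298 with that array and 0.130 without it, and a median difference between it and the other DMSO arrays of -0.616. The 22 cholesterol genes had medians of 0.196, 0.261 and 0.304 and 5 calls higher in the 10 arrays only, including Msmo1 (0.84, adjusted p = 0.00835). Herpud1, a component of ER-associated degradation, was called without DMSO replicate 1 (0.61, adjusted p = 0.0342), 1 of 20 ER chaperone genes, and 5 were called higher with 10 arrays, with medians of 0.161, 0.122 and 0.152.

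For several lists, such as the immediate early genes (0.273 and 0.125), the median was larger with DMSO replicate 1 than without it, or of the other sign. Another 3 of these lists follow, with their median difference on that array. The 23 heat shock genes differed from the other DMSO arrays there by a median of -0.552 and had medians of 0.236 and 0.085, with 0 called by limma in the 12 or 11 arrays (2 and 4 at an unadjusted p under 0.05) and 2 higher in the 10 arrays, Hspb8 (0.56) and Bag3 (0.29). Hspb8, a small heat shock protein gene, was at 8.17 on DMSO replicate 1, at 10.64 and 10.27 on the others and at 10.96 to 11.05 with DMF. The 21 G2/M genes differed by -0.844 on that array and had medians of 0.221 with 12 arrays and -0.119 without it, with 0 called by limma in the 12, 11 and 10 arrays (1, 0 and 6 at an unadjusted p under 0.05), and the smallest p in the 10 arrays was that of Bub1b, a spindle checkpoint kinase (-0.235, adjusted p = 0.0598). The 6 metallothionein and zinc genes differed by -1.114, with medians of 0.406 and -0.021 and 1 call, lower, in the 10 arrays, Mtf1, the zinc sensor (-0.29), whose 3 kept probes differed in sign. What part DMSO replicate 1 has in each value is given by these pairs, and its cause was not tested.

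**Figure D3:**
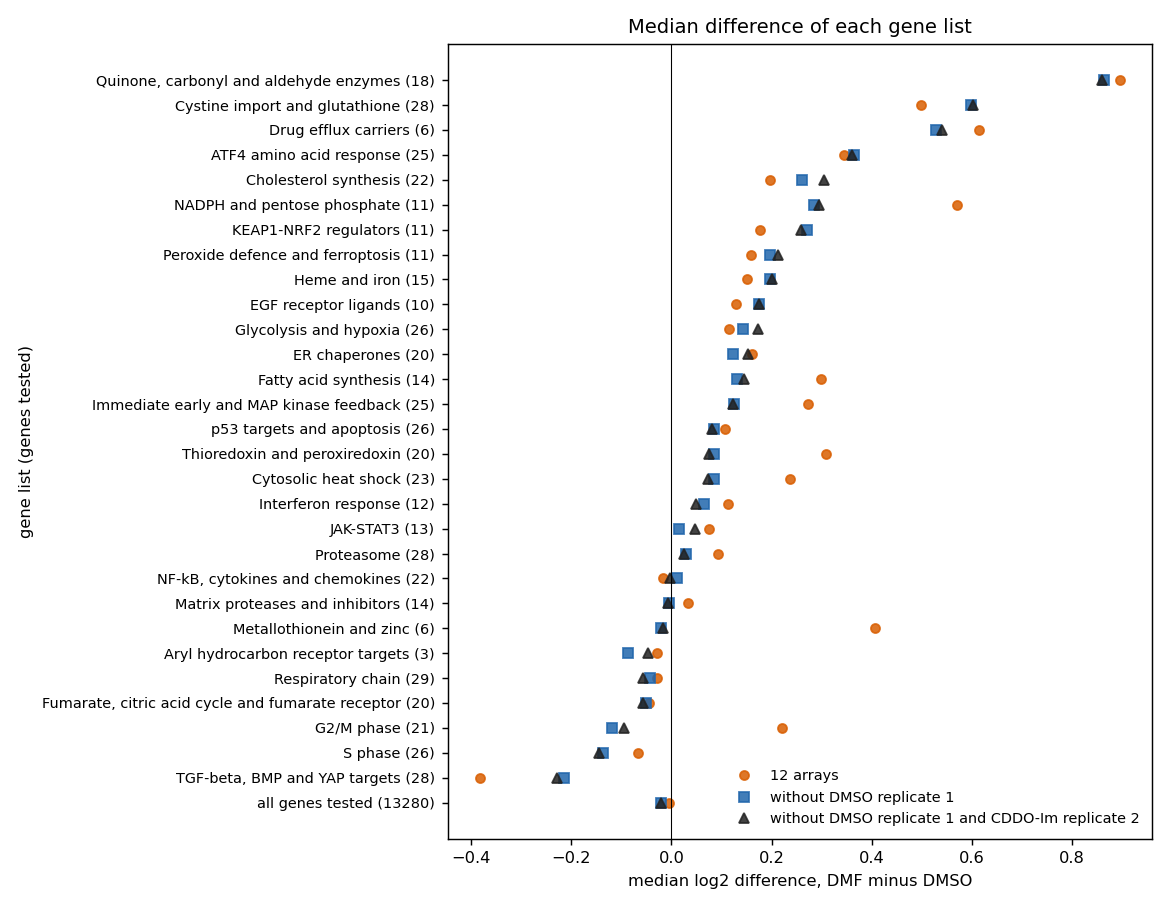
Median log2 difference between DMF and DMSO of each gene list, cell type markers left out, and of all genes tested, with the number of genes tested in brackets, in 12 arrays (circles), 11 arrays (squares) and 10 arrays (triangles). Of the lists plotted the quinone list is highest at 0.859 to 0.896 and the TGF-beta list lowest at -0.383 to -0.214. The circles stand away from the other symbols for G2/M, metallothionein, heat shock, thioredoxin, NADPH, TGF-beta, fatty acid and immediate early genes.

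Genes of fumarate handling and the citric acid cycle, a list chosen because DMF carries fumarate, stayed near the median of all genes. Of 20 tested limma called 0 with 12 or 11 arrays (0 and 1 at an unadjusted p under 0.05), and the median was -0.044 and -0.051. With 10 arrays Ass1, an enzyme of the urea cycle, was called higher (0.395, adjusted p = 0.0216) and Fah, which releases fumarate from tyrosine, lower (-0.26). Hcar2, the receptor for monomethyl fumarate and nicotinate, and Acod1, which makes itaconate, were detected on none of the 12 arrays. The 29 respiratory chain genes had medians of -0.029 and -0.043 and the 28 proteasome genes 0.092 and 0.028, with 0 called by limma in the 12, 11 and 10 arrays (at an unadjusted p under 0.05, 0, 0 and 1 of the first and 0, 0 and 2 of the second), and their smallest p-values in the 10 arrays were those of Ndufa9 (-0.19, adjusted p = 0.176) and Psmd11 (0.26, adjusted p = 0.158). The 26 S phase genes gave Cdc45, a helicase subunit, as 1 call lower in the 10 arrays (-0.35, adjusted p = 0.0486). The 26 p53 and apoptosis genes had 1 call each way in the 10 arrays, with medians of 0.106, 0.085 and 0.080 in the 12, 11 and 10 arrays. Of 3 tested aryl hydrocarbon receptor genes, Cyp1b1 was called lower in the 10 arrays (-0.58, adjusted p = 0.00738), and it lay at 6.06 on DMSO replicate 1 against 7.97 and 7.85 on the other DMSO arrays and 7.25 to 7.43 with DMF.

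Some markers of other cell types were detected, and their part in the results was not tested. Among 9 leukocyte markers 6 were detected on none of the 6 arrays, and Cd14 and Cd68 on all. The summed signal of the 3 tested ones was 1580 to 2930 with DMSO and 1220 to 1250 with DMF, carried by Cd14, a lipopolysaccharide co-receptor that epithelial cells can also express, at 11.39, 10.51 and 10.70 with DMSO and 10.12, 10.11 and 10.14 with DMF (-0.71, adjusted p = 0.573). In the 10 arrays Cd14 was called lower, at -0.49 (adjusted p = 0.00482). Of 10 fibroblast markers 4 were detected on none of the 6 arrays, and Vim and Acta2 on all. Of 6 endothelial markers 3 were detected on none. Summed fibroblast markers were at 17000 to 19100 and 18000 to 18100, carried mostly by Vim, at a mean of 13.95 with DMSO and 14.01 with DMF. The endothelial sums were at 81.1 to 124 and 73.6 to 100, and the lung epithelial ones at 38300 to 40800 and 37500 to 39900. Of the 4 tested fibroblast markers 2 were called in the 10 arrays, Pdgfra, detected on 1 of the 6 arrays, higher (0.60, adjusted p = 0.0265) and Acta2, the smooth muscle actin, detected on all 6, lower (-0.26, adjusted p = 0.0413). Among endothelial and lung markers the smallest p-values in the 10 arrays were those of Kdr (0.05, adjusted p = 0.815) and Foxj1 (-0.23, adjusted p = 0.274).

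DMF was set against the triterpenoids directly, in contrasts that use the DMSO arrays only for the shared spread and the chip term. The doses differ, 15 µM against 0.05 and 0.1 µM, so the contrasts compare these treatments and not equal exposures. Between DMF and CDDO-Im limma called 0 genes with 12 arrays (441 at an unadjusted p under 0.05), 36 without DMSO replicate 1 (0.271%) and 240 with 10 arrays (1.81%; 0.655% higher and 1.15% lower with DMF). Between DMF and CDDO-Me it called 12 (0.0904%; 0.0678% higher), 79 (0.595%; 0.414% higher) and 558 (4.2%; 2.3% higher and 1.9% lower).

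Among the named genes the largest difference from either triterpenoid was that of Hmox1. Hmox1 was at 7.67 to 7.77 with DMF, at 10.99, 10.43 and 11.11 with CDDO-Im and at 10.14, 10.49 and 10.04 with CDDO-Me. DMF minus CDDO-Im was -3.10 with 12 arrays (adjusted p = 0.0571) and -3.34 with 10 (adjusted p = 4.9e-05), and DMF minus CDDO-Me was -2.49 in both (adjusted p = 0.061 and 3.94e-05). The iron exporter gene Slc40a1 was at 7.61, 7.18 and 7.51 with DMF and at 8.65 to 9.28 with the triterpenoids, with differences of -1.67 and -1.78 in the 10 arrays (adjusted p = 0.000935 and 0.000103). Slc7a11 differed far less, by -0.51 from CDDO-Im (adjusted p = 0.0139) and by -0.33 from CDDO-Me (adjusted p = 0.0268) in the 10 arrays. Nqo1 differed by -0.36 (adjusted p = 0.0618) and -0.30 (adjusted p = 0.047).

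The T-box gene Eomes was also lower with DMF than with CDDO-Im (-1.43, adjusted p = 0.00192) and CDDO-Me (-1.19, adjusted p = 0.000945) in the 10 arrays. Eomes was called higher with DMF than with DMSO in 12 arrays (1.53 ± 0.23, adjusted p = 0.0201, and 1.298 without DMSO replicate 1). The endothelins Edn1 and Edn2 were lower with DMF than with CDDO-Me (-1.49 and -1.53) with 12 arrays (adjusted p = 0.0318 and 0.0435). In the 10 arrays both were also lower than with CDDO-Im (-0.78 and -1.39, adjusted p = 0.0309 and 0.00144). Edn2 was at 6.26, 6.30 and 6.08 with DMF, within or below the DMSO range of 6.24 to 6.56, and at 7.62 to 7.92 with CDDO-Me.

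Ivl and Padi1 lay the other way. Ivl, which encodes the cornified envelope protein involucrin, was at 7.36, 7.38 and 7.45 with DMF, at 4.85, 5.04 and 4.85 with CDDO-Me and at 5.26, 6.46 and 6.15 with DMSO. Against DMSO this probe differed by 1.10 in the 10 arrays, and the other kept Ivl probe by 0.355. DMF minus CDDO-Me was 2.48 (adjusted p = 0.0318 with 12 arrays), and DMF minus CDDO-Im was 0.93 (adjusted p = 0.973) with 12 arrays and 1.16 (adjusted p = 0.00212) with 10. Padi1, a peptidylarginine deiminase of the epidermis, was at 7.73 to 7.98 with DMF and 7.73 to 7.87 with DMSO, and at 5.58 to 6.01 with CDDO-Me (difference 2.06, adjusted p = 0.093 with 12 arrays and 8.93e-05 with 10). Its difference from CDDO-Im was 0.79 with 12 arrays (adjusted p = 0.973) and 1.25 with 10 (adjusted p = 0.00272). The transcription factor gene Sox9 was at 8.79 to 9.26 with DMF, 9.04 to 9.67 with DMSO and 7.28 to 7.60 with CDDO-Me (1.54, adjusted p = 0.0318). Sox9 was also higher than with CDDO-Im in the 10 arrays (1.29, adjusted p = 0.00144). The glycosyltransferase gene Mgat3 (1.98, adjusted p = 0.0435) and Gp49a, an immunoglobulin-like receptor with a close paralog (1.85, adjusted p = 0.0318), were also higher with DMF than with CDDO-Me in 12 arrays. In 10 arrays the interleukin 1 antagonist gene Il1rn was higher with DMF than with CDDO-Im (1.065, adjusted p = 0.00144) and CDDO-Me (1.39, adjusted p = 8.93e-05). For Padi1, Sox9, Mgat3, Gp49a and Il1rn the DMF arrays overlapped the DMSO arrays.

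**Figure D4:**
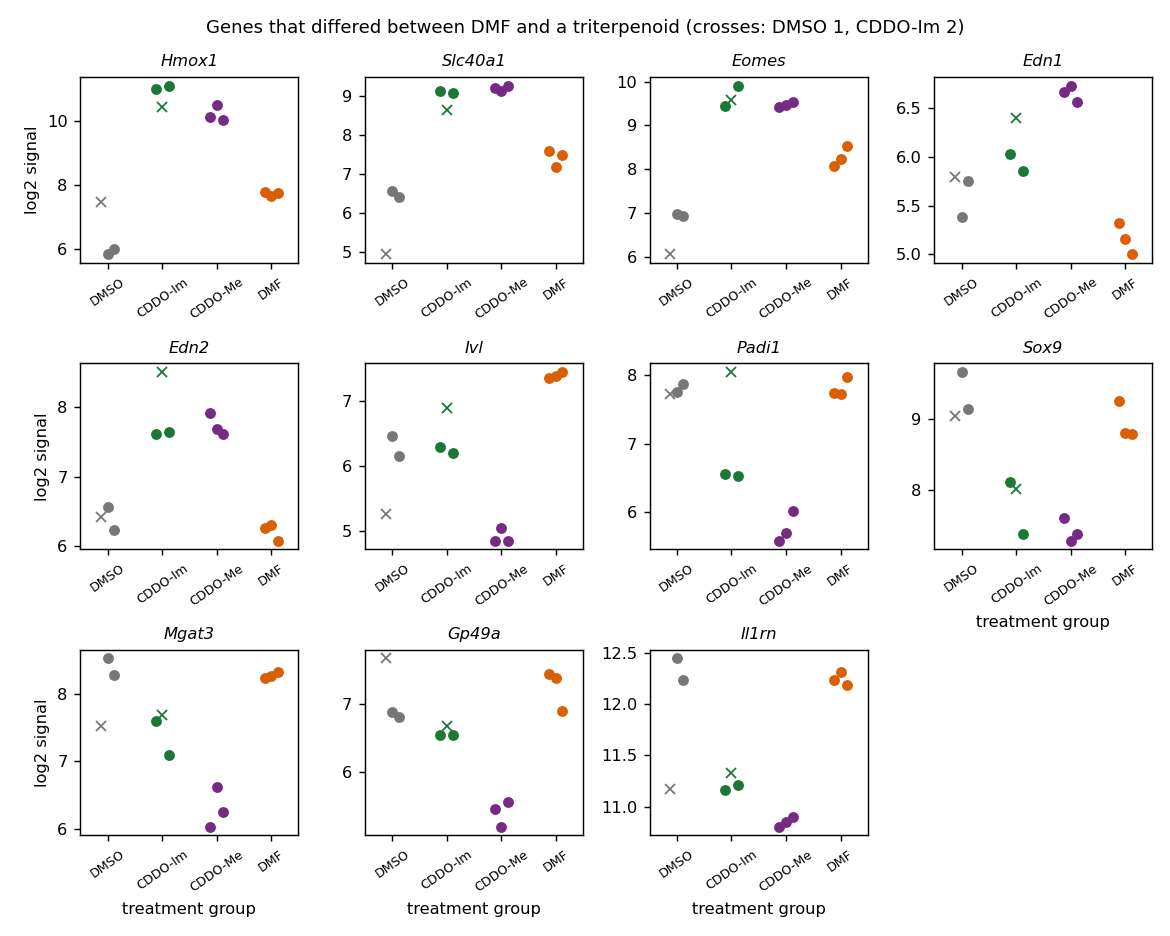
Log2 signal on each array by treatment for 11 of the genes named for their difference between DMF and CDDO-Im or CDDO-Me, with crosses for DMSO replicate 1 and CDDO-Im replicate 2. Hmox1 with DMF lies at 7.67 to 7.77, between the DMSO and triterpenoid arrays, and Ivl with DMF lies above all other arrays.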

How the data were processed

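RNA from RNeasy columns was labelled with biotin, per the labels' protocols. The deposited intensity values were mean bead signals of 45281 probes, exported with GenomeStudio's module version 1.9.0 and normalization none, per the file headers, 1 report per BeadChip. The detection p-values were deposited with them, per array. The authors also deposited normalized intensity values, which served only as an alternative since their method is not stated.

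Groups came from the sample titles. One line of the design text writes CDDO-Im beside 0.1 µM where the titles write Me, and the titles were followed. Signals were corrected with limma's normexp method from the detection p-values (offset 16), quantile normalized and put on the log2 scale. Probes detected at p under 0.05 on at least 3 arrays were kept (19211), and the brightest kept probe stood for each gene, giving 13280 genes. Names were updated through RefSeq for 29586 probes by Entrez number and 2759 by accession. Of 80 named genes 27 had several kept probes, and for 25 of these the probes had 1 sign. The size of the difference could still vary between probes, as for Slc7a11, Calr3 and Ivl.

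limma (version 3.58.1, R 4.3.3) fitted all 12 arrays with group and chip, and every test was two-sided. The number of arrays limits the precision of every value.

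Members, lists and tests were chosen with earlier results of these data known. Genes were named by a rule: called in 12 arrays, or in both the 11 and the 10 arrays, with the same sign in these fits and within each chip, and a name that is not a clone or locus type. Of these 102 genes the 15 largest rises and falls (11 existed) in the 10 arrays and up to 4 per list were named, with genes called lower in 12 arrays. Other genes were named whether or not they met this rule. They were the smallest p of a list with no such gene, 11 fixed genes, and the 4 largest differences each way from each triterpenoid. The last were called against that triterpenoid in the 10 arrays, with the same sign in 12. Some genes that met the rule are not reported here. Other genes named from a list, and the other calls in 12 arrays, were chosen after their values were seen. Alternatives covered background, normalization, filter, probe choice, blocks, groups and arrays.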

Additional observations from a re-analysis of the deposited data

How the results depend on the processing

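The count of genes called between DMF and DMSO, 46 with 12 arrays, depended most on which arrays were fitted. It was 1118 with the 10 arrays, 1071 when these were normalized and filtered again, and 3012 with array weights (gene-by-gene method, 43% of them higher), which gave DMSO replicate 1 a weight of 0.0322 and DMSO replicate 3 one of 4.17. With only the DMSO and DMF arrays it was 1, and 171 when DMSO replicate 1 was left out of those. Leaving out 1 array at a time gave 23 to 121, with 108 without DMSO replicate 1, 121 without CDDO-Im replicate 2, 24 without DMSO replicate 3, 28 without CDDO-Me replicate 1, and 23, 24 and 29 without DMF replicates 1, 2 and 3. limma called 0 within chip 1 (43 at an unadjusted p under 0.05) and 147 within chip 2, where DMF (chip 1) or DMSO (chip 2) had a single array, assumed to vary like the other groups. The count was 80 with no chip term, 87 with cyclic loess, 22 with median scaling and 86 with the authors' normalized matrix. Against CDDO-Im, 0 became 5 with no chip term and 240 with 10 arrays, and leaving out 1 array gave 0 to 36, the highest without DMSO replicate 1. Against CDDO-Me, 12 became 29 with no chip term, 19 with cyclic loess and 558 with 10 arrays, and leaving out 1 array gave 0 to 79: 79 without DMSO replicate 1, 51 without CDDO-Im replicate 2, 9 without DMSO replicate 2 and 0 without any other. The cause was not tested.

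With replicate number as a block in place of chip the counts were 59, 0 and 1, and 36 for DMSO with chip kept as well. Same-numbered DMSO and DMF arrays deviated from their group means with correlations of 0.128, -0.0368 and 0.147, and DMSO replicate 2 correlated best with DMF replicate 3 (0.101), so the numbers were not taken as pairs.

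Of 1044 values for single genes 15 turned in sign, all for genes with no call in 12 arrays. Cyp1b1 (-0.03) was -0.573 when DMSO replicate 1 was omitted, 0.319 when DMSO replicate 2 or replicate 3 was, 0.041 without DMF replicate 2 and with the replicate block, and 0.31 within chip 1. Keap1 (0.08) was 0.325 without DMSO replicate 1, -0.103 and -0.027 without DMSO replicates 2 and 3 and -0.1 within chip 1, and G6pdx was -0.033 without DMSO replicate 2. Kdr (-0.07) was 0.084 and -0.198 without DMSO replicates 1 and 2, 0.051 with 10 arrays, 0.025 within chip 2 and 0.038 with cyclic loess. Nfe2l2 was 0.004 with 10 arrays and 0.03 within chip 2. Of 198 list medians 54 moved by more than the spread between arrays.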
